A study of Homo sapiens with 15 samples.

Results

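The knockdown of PALI1 was compared with a control vector in LNCaP, an established androgen-sensitive human prostate cancer cell line of luminal character. The comparison took every library of 2 groups, chosen by their labels alone: 3 libraries labelled shPALI1, from cells infected with a lentivirus that carries a short hairpin RNA against PALI1, and 3 labelled pLKO, from cells infected with the control hairpin vector. They are 6 of the 15 libraries of the series, whose other 9 carried hairpins against G9a (shG9a), JARID2 (shJarid2) or SUZ12 (shsuz12), 3 libraries each. All groups were grown in RPMI with serum, are labelled WT, and carried their virus for 4-5 days. The labels give 1 hairpin name per target and do not say whether replicates were separate cultures, so the p-values measure only how far these libraries scatter, and that scatter may be technical.

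PALI1 is made from the LCOR locus and is an accessory subunit of Polycomb repressive complex PRC2, which methylates lysine 27 of histone H3 and keeps genes silent. It also binds G9a, the product of EHMT2, which methylates lysine 9 of histone H3, another mark of silent chromatin. The title of the series links PALI1 to the recruitment of PRC2 to G9a targets. Androgen-induced genes and cholesterol genes were left aside here, and the other functions are described.

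The deposited values are RPKM, reads per kilobase of gene model and M reads. Of 26443 gene names with values, 12000 reached an RPKM of 1 in 3 or more of the 6 libraries and were tested. Changes are given as shPALI1 minus pLKO on the log2(RPKM + 1) scale with their standard error, and a gene passed at a Benjamini-Hochberg adjusted p under 0.05 in limma over all 12000 genes. This scale understates the change of genes with low values. Depth, worked out from the size of 1 read in the values, was 11.65 to 15.93 M reads in pLKO and 10.56 to 13.75 M in shPALI1, so a gene of 2 kb at 1 RPKM had 21.1 to 31.9 reads. Across genes, libraries of the same group correlated at r between 0.987 and 0.991 and libraries of different groups between 0.952 and 0.958.

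The targeted transcript was lower in every knockdown library. C10orf12, the name under which the table lists the PALI1 reading frame, was at 3.77, 3.94 and 4.44 RPKM in pLKO and 0.667, 1.2 and 1.03 RPKM in shPALI1 (fell by 1.37 ± 0.21, adjusted p = 0.00011). The row of LCOR, the transcription corepressor encoded at the same locus (GRCh38 chromosome 10, 96832282 to 96995959, plus strand), was at 4.2, 5.58 and 5.67 RPKM in pLKO and 2.8, 3.12 and 3.36 RPKM in shPALI1 (fell by 0.58 ± 0.15, adjusted p = 0.0061). In both genes the groups did not overlap. The LCOR row may hold reads of PALI1, so the effects of the 2 products cannot be told apart. SUZ12 (-0.25, adjusted p = 0.063), JARID2 (-0.19, adjusted p = 0.065) and EHMT2 (0.08, adjusted p = 0.44) did not pass. SUZ12 passed with only the 6 libraries in the model (adjusted p = 0.039) and after correction for length and GC content (adjusted p = 0.0028). EHMT2 passed after that correction (0.21, adjusted p = 0.0081) and JARID2 without shPALI1 replicate 3 (-0.24, adjusted p = 0.045).

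Expression changed widely: 2070 genes were higher (17.2% of those tested) and 3115 lower (26.0%) in shPALI1, 5185 in all (43.2%). Changes of at least 2-fold on the scale of the test were fewer, with 210 genes higher (1.75%) and 229 lower (1.91%). These counts leave out genes with low values whose mean RPKM changed more than 2-fold, such as NLRC5 (2.82-fold higher) and MMP7 (5.24-fold lower). The 3 libraries of one group lay wholly above the 3 of the other for 22.5% of genes in the direction of shPALI1 and for 33.4% in the direction of pLKO. The median change of all genes was -0.053, and the list medians below are to be read against it. Likewise, list counts for shPALI1 against pLKO below are to be read beside the 17.2% that rose and the 26.0% that fell. Counts without the filter have another reference, 2547 higher and 3234 lower among 20581 genes. Of the calls, 39.9% were higher as deposited, 47.9% after median ratio scaling and 49.8% after quantile normalization, and 0 genes turned from one call to the opposite one under any scaling.

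**Figure D1:**
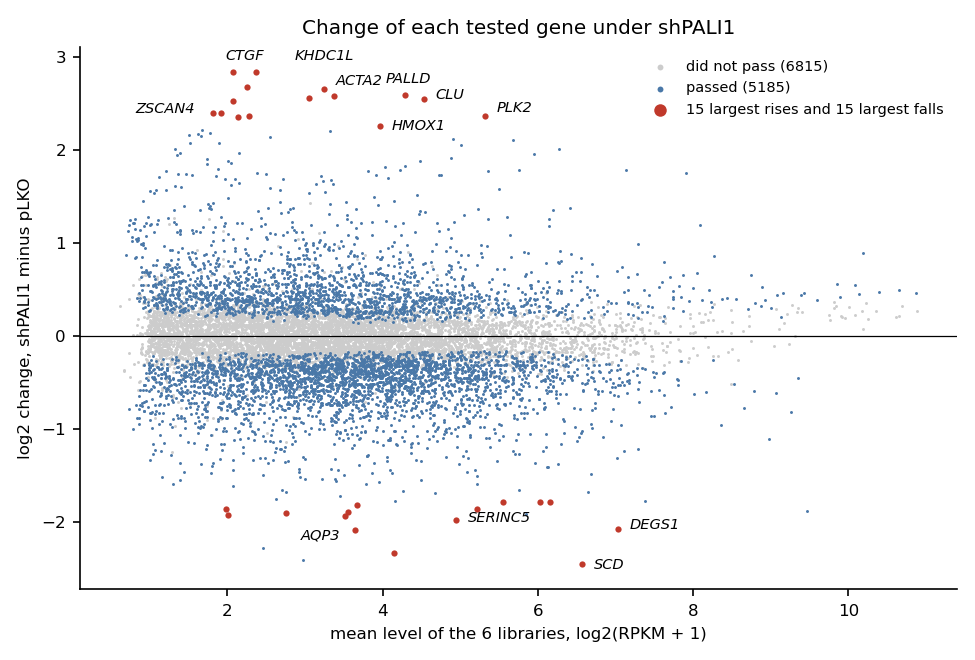
Change of each of the 12000 tested genes (vertical axis, log2, shPALI1 minus pLKO) against its mean level over the 6 libraries (horizontal axis, log2(RPKM + 1)). Blue points passed the test (5185) and grey points did not (6815). Red points are the 15 largest rises and 15 largest falls, which lie at low and middle levels.

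The 15 largest rises, taken outside the androgen and cholesterol lists among genes that did not overlap between groups, joined 4 kinds of gene. Cytoskeletal and contractile proteins were ACTA2, ACTG2, PALLD and FSCN1. Secreted or matrix-acting proteins were CTGF, MMP10, CLU and CBLN2. Genes otherwise known from the cleavage-stage embryo or the germ line were KHDC1L, PRAMEF12, TRIM49B and ZSCAN4. The others were the kinase gene PLK2, the heme oxygenase gene HMOX1 and C8orf4, whose product modulates Wnt signalling.

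Several of these genes were near or at 0 in the control cells. CTGF, which encodes a secreted matricellular protein (chromosome 6, 131948176 to 131951373, minus strand), was at 0.0345, 0.0268 and 0.0366 RPKM in pLKO and 6.71, 5.87 and 6.56 RPKM in shPALI1 (rose by 2.84 ± 0.08, adjusted p = 2.5e-11). The control values correspond to single reads. ZSCAN4, a zinc-finger gene of the cleavage-stage embryo (chromosome 19, 57668935 to 57679152, plus strand), was at 0, 0.224 and 0.153 RPKM in pLKO and 4.64, 5.67 and 4.44 RPKM in shPALI1 (rose by 2.39 ± 0.11, adjusted p = 1.5e-09). C8orf4 was at 0.176, 0.136 and 0.373 RPKM in pLKO and 7.82, 6.44 and 4.23 RPKM in shPALI1 (rose by 2.52 ± 0.16).

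Others were expressed in the control cells and rose from there. PLK2, a stress-induced polo-like kinase gene (chromosome 5, 58453982 to 58460260, minus strand), was at 11.5, 12.9 and 11.8 RPKM in pLKO and 66.8, 67.1 and 63.9 RPKM in shPALI1, which is 5.48-fold of the control mean (rose by 2.36 ± 0.07, adjusted p = 2.5e-11). CLU, the gene of the extracellular chaperone clusterin, was at 5.93, 5.17 and 5.95 RPKM in pLKO and 45.8, 37.6 and 32.1 RPKM in shPALI1 (rose by 2.55 ± 0.15, adjusted p = 8.1e-09). HMOX1, which opens the heme ring, was at 4.68, 3.79 and 4.64 RPKM in pLKO and 28.9, 25.9 and 20.0 RPKM in shPALI1 (rose by 2.26 ± 0.13, adjusted p = 8.4e-09). In each of the 3 genes all shPALI1 libraries lay above all pLKO libraries, which the rule for choosing the largest rises required.

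The 15 largest falls included the lipid enzymes SCD and DEGS1, membrane transport genes (AQP3, FXYD3, SLC30A4, SLC39A6 and SERINC5), signalling genes (PSD4, RASSF3, NPPC and S100P) and the detoxifying epoxide hydrolase EPHX1. The small RNA names SNORD116-20 and MIR4720 also met the rule and rest on few reads. EPHX1 was at 102, 97 and 100 RPKM in pLKO and 27.5, 28.4 and 28.6 RPKM in shPALI1 (fell by 1.79 ± 0.10, adjusted p = 5.6e-09). RASSF3, of the Ras-association family, was at 108, 117 and 106 RPKM in pLKO and 30.6, 30.7 and 32 RPKM in shPALI1 (fell by 1.79 ± 0.08, adjusted p = 5.4e-10). In both genes each library lay within a narrow range of its own group. That the groups did not overlap was required by the rule for choosing the largest falls. In a bulk sample, fewer cells of a type and less RNA per cell cannot be told apart.

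**Figure D2:**
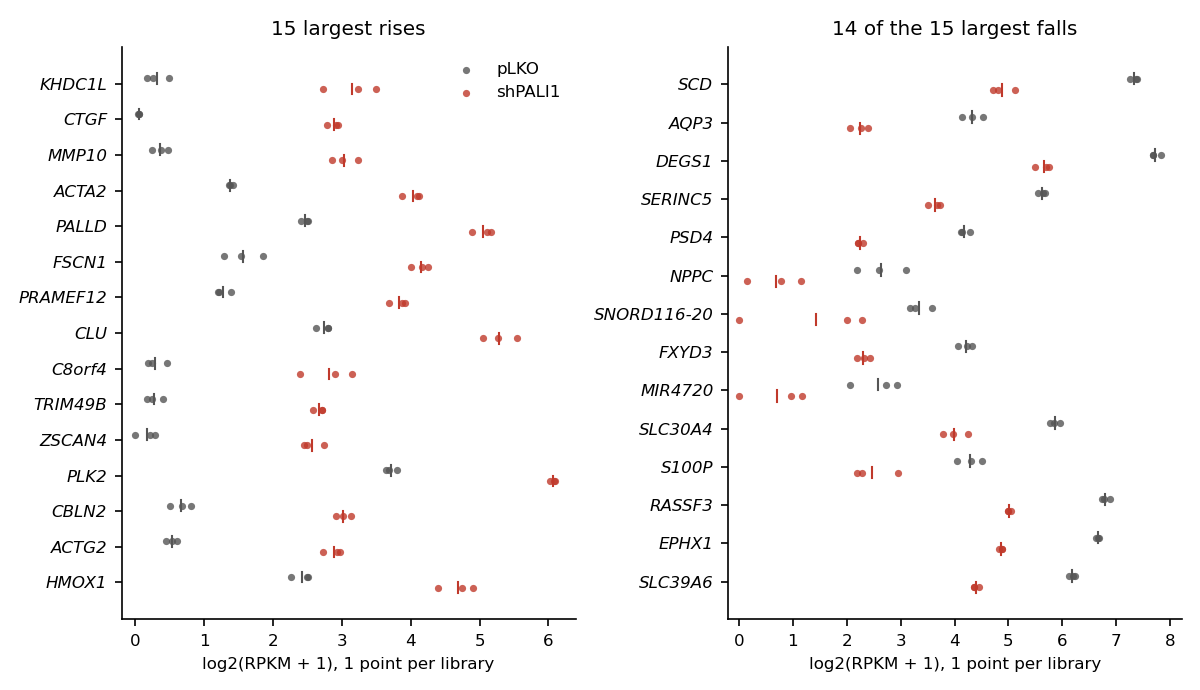
Values of the 15 largest rises (left) and of 14 of the 15 largest falls (right) in log2(RPKM + 1), 1 point per library, with short lines for group means (grey, pLKO; red, shPALI1). No gene shows overlap between the groups, which the rule for choosing them required.

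Contractile and cross-linking proteins of the actin cytoskeleton moved unevenly. Actin filaments are bundled, anchored and pulled on by these partners, and in epithelial cells the set in use differs from that in muscle and fibroblasts. Of 33 tested members of a list of 37, 16 rose and 6 fell, with a median change of 0.28. ACTG2, the enteric smooth muscle actin, was at 0.365, 0.519 and 0.451 RPKM in pLKO and 6.62, 6.88 and 5.64 RPKM in shPALI1 (rose by 2.35 ± 0.14, adjusted p = 1.1e-08), and ACTA2, the vascular form (chromosome 10, 88935074 to 88991339, minus strand), was at 1.57, 1.66 and 1.58 RPKM in pLKO and 16.4, 16.1 and 13.7 RPKM in shPALI1. These 2 sequences are close to each other, and reads may be shared between them. FLNA, the cross-linker filamin A, was at 66.6, 57.4 and 62.4 RPKM in pLKO and 210, 235 and 204 RPKM in shPALI1 (rose by 1.78 ± 0.09, adjusted p = 3.9e-09).

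Zyxin, a mechanosensitive focal adhesion protein encoded by ZYX, was at 12, 9.56 and 9.15 RPKM in pLKO and 53.1, 49.3 and 41.1 RPKM in shPALI1 (rose by 2.12 ± 0.11). TPM4, a tropomyosin that coats filaments, was at 18.4, 19 and 17.3 RPKM in pLKO and 89.4, 84.1 and 72.6 RPKM in shPALI1 (rose by 2.10 ± 0.07), and CNN2, a calponin, was at 19.4, 16.7 and 16.6 RPKM in pLKO and 66.4, 63.6 and 57.3 RPKM in shPALI1 (rose by 1.77 ± 0.07). In all 3 genes the lowest shPALI1 library was above the highest pLKO library. MYL9, a regulatory light chain of myosin, rose by 1.67 ± 0.13, and the heavy chain MYH9 by 0.66 ± 0.09. The main cytoplasmic actin gene ACTB, already at 734 to 912 RPKM in pLKO, rose by 0.89 ± 0.10.

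The change was not shared by the whole list. TAGLN, a smooth muscle marker that often accompanies ACTA2, was at 2.7, 2.18 and 3.14 RPKM in pLKO and 1.64, 1.26 and 1.59 RPKM in shPALI1 and fell by 0.55 ± 0.10 (adjusted p = 0.00053). Its relative TAGLN2 fell by 0.88 ± 0.10 and LIMA1 by 0.75 ± 0.08. Proteins of filament assembly and disassembly showed no common direction, with 8 of 33 higher and 8 lower (median -0.02, which turned above 0 under other scalings; 5 higher without shPALI1 replicate 2), although the actin monomer-binding thymosins TMSB4X (1.23 ± 0.16) and TMSB10 (1.19 ± 0.15) rose.

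The promoters of several of these genes hold the CArG box, the sequence bound by serum response factor (SRF), a regulator of actin genes. The search took the strict CArG consensus: CC, then 6 bases of A or T, then GG. Both strands of RefSeq promoters were searched (GRCh38.p14, 250 bases before to 50 after each start). Of 16 actin partners that rose, 14 had a promoter in the table, and 6 of these (42.9%) held a CArG box: ACTG2, ACTG1, TPM4, CNN2, ACTN1 and FLNA. Of the 15 with a promoter that did not rise, 1 (6.7%), MYLK, held one, and over all genes with a promoter the share was 1.6% (438 of 27305). Over tested genes with a promoter it was 1.5% (142 of 9485), and over those that rose at least 2-fold in RPKM + 1 9.1% (14 of 154). Of 11 immediate early and SRF-related genes that rose, 2 (18.2%) held one. The promoters of ACTG2 (chr2:73892758-73893057, plus strand), TPM4 (chr19:16067288-16067587, plus strand) and FLNA (chrX:154374585-154374884, minus strand) are shown because these holders had the 3 largest rises. CArG boxes are in capitals.
ACTG2: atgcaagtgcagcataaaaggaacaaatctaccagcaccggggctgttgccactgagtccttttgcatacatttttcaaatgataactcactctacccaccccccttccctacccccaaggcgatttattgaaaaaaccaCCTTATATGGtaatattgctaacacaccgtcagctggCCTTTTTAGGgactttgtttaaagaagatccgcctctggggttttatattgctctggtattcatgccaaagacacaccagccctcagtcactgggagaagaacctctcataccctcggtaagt
TPM4: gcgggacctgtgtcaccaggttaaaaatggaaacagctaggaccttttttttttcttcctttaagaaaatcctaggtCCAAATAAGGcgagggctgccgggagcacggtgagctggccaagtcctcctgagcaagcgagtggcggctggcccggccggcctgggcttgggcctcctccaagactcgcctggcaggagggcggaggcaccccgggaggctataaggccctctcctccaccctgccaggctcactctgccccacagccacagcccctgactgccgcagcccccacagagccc
FLNA: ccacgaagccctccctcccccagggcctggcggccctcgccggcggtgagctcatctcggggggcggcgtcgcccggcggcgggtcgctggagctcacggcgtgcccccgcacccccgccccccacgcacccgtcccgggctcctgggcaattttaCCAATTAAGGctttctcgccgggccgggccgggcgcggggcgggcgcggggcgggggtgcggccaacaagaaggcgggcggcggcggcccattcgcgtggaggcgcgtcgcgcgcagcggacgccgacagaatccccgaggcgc
In the windows shown, ACTG2 holds 2 boxes and the others 1 each. Other TPM4 promoter windows, starting at 16076245 and 16076766 on chromosome 19, hold no box. A match is a description of the letters and not of binding, and the windows of ACTA2, PALLD and ZYX, which also rose, held no strict match. Sequences 1 base off were not counted, such as CCCTATATGG and CCTTGTTTGG in ACTA2 and CCTTGTATGG in ZYX.

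**Figure D3:**
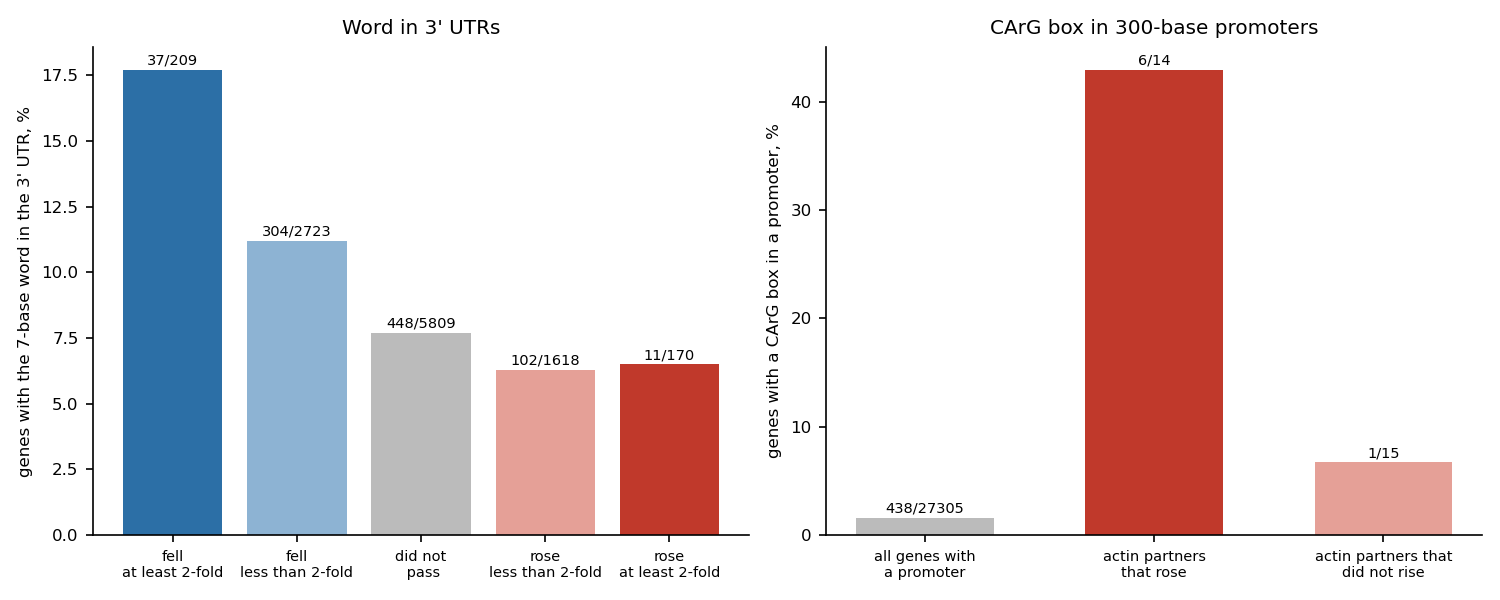
Left, percent of tested genes with a 3′ UTR that hold the word GAGGATA, by their change in shPALI1, falling from 17.7% of the largest falls to 6.5% of the largest rises. The word was found in an earlier search of these same data, so its shares only describe. Right, percent of genes with a strict CArG match in any 300-base promoter, at 1.6% of all genes, 42.9% of actin partners that rose and 6.7% of those that did not. Numbers above the bars are genes with the word or box out of genes with a sequence.

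Genes that SRF, mechanical cues and growth factors induce rapidly had more rises than falls. Of 28 immediate early and SRF-related genes, 19 were tested, 11 rose and 1 fell (median 0.46), and without a filter on low values 14 rose and 1 fell of 28. ATF3, a stress-induced factor of the AP-1 family, was at 7.69, 7.28 and 7.55 RPKM in pLKO and 32.8, 30.3 and 25.1 RPKM in shPALI1 (rose by 1.83 ± 0.09, adjusted p = 1.5e-09). EGR1, a classic serum-response gene, was at 0.129, 0.18 and 0.219 RPKM in pLKO and 1.36, 1.58 and 1.35 RPKM in shPALI1 (rose by 1.05 ± 0.09, adjusted p = 4.5e-07). JUN rose by 1.30 ± 0.10 and JUND by 1.36 ± 0.14. JUND was higher still in shG9a and shJarid2, at means of 69.8 and 75.6 RPKM against 52.6 RPKM in shPALI1. Of the 19 tested genes, 8 were higher and 7 lower in shPALI1 than in shJarid2 (of all tested genes, 31.7% and 32.1%). Against shG9a 9 were higher and 4 lower (of all, 25.4% and 23.8%), and against shsuz12 8 and 2 (of all, 32.8% and 24.1%). SRF itself rose by 0.49 ± 0.08 and its actin-sensing coactivator gene MKL1 by 0.38 ± 0.07.

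Targets of YAP and TEAD, which report cell spreading and contact, also included large rises. Of 27 listed genes 14 were tested, 9 rose and 2 fell (median 0.47), and without the filter 12 rose and 4 fell of 26. CYR61, a matricellular relative of CTGF, was at 2.51, 2.96 and 2.32 RPKM in pLKO and 17.2, 15.3 and 14 RPKM in shPALI1 (rose by 2.20 ± 0.09, adjusted p = 4.9e-10). AMOTL2, a YAP-binding junction protein gene, rose by 1.03 ± 0.12, IGFBP3 by 1.18 ± 0.09, GADD45A by 0.99 ± 0.12 and YAP1 itself by 0.64 ± 0.13. NUAK2, a kinase gene of the list, fell by 0.61 ± 0.10. The CTGF promoter (RefSeq, chr6:131951323-131951622, minus strand) holds the TEAD-binding letters GGAATG, searched on both strands, 3 times, and these are in capitals. The letters occur in 14% of the 35116 promoters.
CTGF: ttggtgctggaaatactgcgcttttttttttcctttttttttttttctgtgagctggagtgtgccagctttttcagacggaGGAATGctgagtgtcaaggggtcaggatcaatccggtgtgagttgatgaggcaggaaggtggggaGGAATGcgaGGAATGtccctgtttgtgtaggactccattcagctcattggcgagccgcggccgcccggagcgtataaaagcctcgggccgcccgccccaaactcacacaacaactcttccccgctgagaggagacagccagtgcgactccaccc

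Matrix and protease genes split. Of 37 matrix genes 21 were tested, of which 7 rose and 5 fell (median 0.19). The fibrillar collagens COL5A2 (1.43 ± 0.09) and COL3A1 (1.24 ± 0.09) rose. LAMC1, a chain of most epithelial laminins, was at 121, 123 and 132 RPKM in pLKO and 54, 61.3 and 59.3 RPKM in shPALI1 and fell by 1.09 ± 0.15 (adjusted p = 4.7e-05). Among 14 tested proteases and inhibitors 3 rose and 7 fell: MMP10 and the serpin SERPINB5 (1.53 ± 0.09) rose, while MMP7 and the lysosomal protease CTSD fell by 0.88 ± 0.14 and 1.16 ± 0.12. Of 17 tested integrin and focal adhesion genes 5 rose, including the collagen receptor chain ITGA1 (1.28 ± 0.09), and 3 fell.

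Epithelial junction genes were lower on balance. These proteins seal and couple neighbouring epithelial cells, and 13 of 29 fell while 5 rose (median -0.30). CGN, the tight junction protein cingulin, was at 21.1, 18.8 and 20.8 RPKM in pLKO and 6.54, 7.46 and 7.74 RPKM in shPALI1 (fell by 1.37 ± 0.07, adjusted p = 4.3e-09). CLDN12, TJP3 and CDH1, which encodes E-cadherin, fell by 1.00 ± 0.09, 0.76 ± 0.09 and 0.44 ± 0.08, the last not past the threshold after quantile normalization (adjusted p = 0.059). CTNNA1, the link from E-cadherin to actin, rose by 0.49 ± 0.07. Without shPALI1 replicate 1, 3 genes of the list rose.

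Intermediate filament and tubulin genes moved in both directions. Of 22 tested, 5 rose and 9 fell (median -0.18). VIM, the mesenchymal filament protein vimentin, was at 0.833, 0.617 and 0.482 RPKM in pLKO and 4.7, 5.62 and 3.82 RPKM in shPALI1 (rose by 1.79 ± 0.18, adjusted p = 1.9e-06). TUBB3, a tubulin typical of neurons, was at 13.4, 11.1 and 10.1 RPKM in pLKO and 53.5, 51.8 and 47 RPKM in shPALI1 (rose by 2.05 ± 0.09, adjusted p = 8.8e-10), and TUBA1A rose by 1.55 ± 0.09. KRT19, a keratin of simple epithelium and also on the androgen list, was at 3.14, 2.6 and 2.39 RPKM in pLKO and 0.515, 0.148 and 0.0495 RPKM in shPALI1 (fell by 1.60 ± 0.15). Of 18 regulators and markers of mesenchymal transition only 6 passed the filter, of which 2 rose and 1 fell. ZEB1, ZEB2, TWIST2 and CDH2 were at no more than 0.0295 RPKM in any of the 6 libraries. SNAI2, under the filter and so not tested, was at 0.192, 0.328 and 0.407 RPKM in pLKO and 0.629, 0.621 and 0.657 RPKM in shPALI1.

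Gene families of the cleavage-stage embryo, which are silent in nearly all adult tissues, were detected after the knockdown. LEUTX, a homeobox gene of the early embryo (chromosome 19, 39776595 to 39786167, plus strand), was listed at 0 in all 3 pLKO libraries and at 3.24, 3.14 and 2.71 RPKM in shPALI1. MBD3L2, chosen after its values were seen, was likewise listed at 0 in pLKO and at 5.26, 3.66 and 2.07 RPKM in shPALI1. RFPL4B rose by 1.94 ± 0.11 and TRIM43 by 1.57 ± 0.09. Of 52 genes of these families and of cancer testis families in the table, 14 were at 0 in all 6 libraries and 20 passed the filter, several only through their shPALI1 values. Without a filter 38 could be tested, of which 21 were higher and 1 was lower, PRAME, a cancer testis gene expressed in the control cells (fell by 0.64 ± 0.08). Over all 20581 genes tested without a filter, 2547 were higher and 3234 lower.

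Within the PRAMEF family of the germ line and early embryo, many members were higher. Of 20 PRAMEF names in the table, 14 were detected in at least 1 of the 6 libraries, and for 11 of these the shPALI1 libraries all lay above the pLKO libraries. Among all 12000 tested genes 22.5% did so. Only 2 PRAMEF members passed the filter, and the share among genes under it was not worked out. Mean levels of the detected members ranged from 0 to 1.42 RPKM in pLKO and from 0.0141 to 13.2 RPKM in shPALI1, and their sum was 1.42 to 1.83 RPKM against 18.5 to 21.0 RPKM. PRAMEF12 accounted for most of the sum, at 1.32, 1.62 and 1.3 RPKM in pLKO and 14.1, 13.6 and 11.9 RPKM in shPALI1 (rose by 2.56 ± 0.12). KHDC1L was at 0.128, 0.198 and 0.406 RPKM in pLKO and 10.3, 8.37 and 5.63 RPKM in shPALI1 (rose by 2.84 ± 0.18, adjusted p = 2.7e-08), whereas its relative KHDC1 stayed between 1.68 and 2.31 RPKM in all 6 libraries. Members of the PRAMEF, TRIM43, TRIM49, RFPL4 and MBD3L families are near-identical copies among which reads may be split, so the levels of single members are uncertain.

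Silent genes that came on were more numerous than genes that went off. With every pLKO library under 0.2 RPKM and every shPALI1 library at 1 RPKM or more, 25 names qualified, and only 2, ISX and LAMA1, qualified in the opposite direction. Besides embryo family members, the 25 included CTGF, the meiotic cyclin gene CCNA1, the LIM-domain gene FHL2, the phosphate transporter gene SLC34A2, the histone demethylase gene KDM4E and the adhesion genes PCDH9, FLRT2 and LRRTM3. FHL2, a transcriptional coactivator, was at 0.18, 0.0837 and 0.0381 RPKM in pLKO and 4, 3.39 and 3.46 RPKM in shPALI1 (rose by 2.07 ± 0.11, adjusted p = 4.6e-09). ISX, an intestinal homeobox gene, was at 2.46, 2.29 and 2.16 RPKM in pLKO and 0.184, 0.141 and 0.141 RPKM in shPALI1 (fell by 1.52 ± 0.09, adjusted p = 9.5e-09). FHL2 and CCNA1 were chosen after their values were seen.

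Clustered protocadherins, adhesion proteins that give neurons their cell-surface identity, were higher across the beta cluster (chromosome 5, 141051135 to 141249365). Of 16 members in the table, 15 were detected, and in all 15 every shPALI1 library lay above every pLKO library. Among all 12000 tested genes 22.5% did so, and the share among genes under the filter was not worked out. PCDHB5, the most abundant, was at 4.07, 4.34 and 4.99 RPKM in pLKO and 12.3, 14.7 and 13.8 RPKM in shPALI1 (rose by 1.42 ± 0.10, adjusted p = 5.8e-08). Mean levels ranged from 0.00648 to 4.47 RPKM in pLKO and from 0.137 to 13.6 RPKM in shPALI1. Only 8 members passed the filter, and PCDHB1 was at 0 throughout. Outside the cluster, the protocadherin gene PCDH9 rose by 2.17 ± 0.08 and the ephrin receptor gene EPHA7 by 1.96 ± 0.14, both chosen after their values were seen.

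Interferon-stimulated genes, the antiviral programme that cells start on sensing foreign nucleic acid, were partly higher. Of 38 listed genes 24 were tested, 11 rose and 3 fell (median 0.29), and without a filter 16 rose and 3 fell of 38. IFI6 was at 13.1, 11 and 10.4 RPKM in pLKO and 38.9, 28.2 and 25.8 RPKM in shPALI1 (rose by 1.34 ± 0.19, adjusted p = 5.8e-05), and IFIT1, which binds foreign RNA ends, at 0.257, 0.252 and 0.254 RPKM in pLKO and 1.54, 1.46 and 1.51 RPKM in shPALI1 (rose by 1.00 ± 0.08). The RNA sensor gene DDX58 rose by 1.02 ± 0.11, while HERC5 fell by 0.54 ± 0.10. GBP1, a guanylate-binding protein gene chosen after its values were seen, was at 0.133, 0.206 and 0.366 RPKM in pLKO and 5.31, 4.39 and 4.08 RPKM in shPALI1 (rose by 2.18 ± 0.12). Antigen presentation by MHC class I showed 3 rises, including its activator NLRC5 (0.68 ± 0.09), and 4 falls, including the chaperone CALR (0.78 ± 0.11), among 15 tested genes.

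A cell cycle inhibitor and a stress cytokine were lower, and 2 genes of cell death were higher. CDKN1A, the cyclin-dependent kinase inhibitor p21, was at 201, 179 and 178 RPKM in pLKO and 138, 123 and 113 RPKM in shPALI1 and fell by 0.57 ± 0.10 (adjusted p = 0.00028). The secreted stress cytokine GDF15 was at 798, 667 and 596 RPKM in pLKO and 332, 308 and 305 RPKM in shPALI1 and fell by 1.11 ± 0.14. Both genes lay below every pLKO library in all 3 shPALI1 libraries. The death receptor gene FAS rose by 1.22 ± 0.09 and PMAIP1, of the BH3-only family, by 0.99 ± 0.08.

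Cell cycle genes that passed were nearly all lower. Of 45 tested genes of DNA replication 28 fell and 2 rose (median -0.29), and of 46 mitotic genes 25 fell and 0 rose (median -0.34). CCND1, the cyclin D1 gene that couples growth signals to the cycle (chromosome 11, 69641087 to 69654474, plus strand), was at 108, 98.9 and 95.4 RPKM in pLKO and 36, 39.7 and 36.4 RPKM in shPALI1 (fell by 1.41 ± 0.08, adjusted p = 5.1e-09). MAD2L1, of the spindle checkpoint, was at 36.1, 40.7 and 33.5 RPKM in pLKO and 18.8, 16.4 and 16.9 RPKM in shPALI1 (fell by 1.04 ± 0.09). The replication list genes GMNN and MCM6 fell by 0.96 ± 0.11 and 0.58 ± 0.07, the S-phase regulators E2F1 and E2F2 by 0.78 ± 0.13 and 0.79 ± 0.09, and the mitotic kinase gene AURKA by 0.56 ± 0.07. CDKN2A, which encodes p16 and p14ARF, rose by 0.76 ± 0.16. Of 26 BCL2 family and caspase genes 8 rose, including CASP6 (1.08 ± 0.09), and 6 fell, including the death inducers BIK (0.87 ± 0.14) and BMF (0.71 ± 0.08), and the median of this list changed sign with the scaling.

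Stress programmes did not share a direction. Of all tested genes, 17.2% rose and 26.0% fell. Targets of NRF2, the sensor of oxidants, were higher in 10 and lower in 2 of 23 (median 0.15): besides HMOX1, the glutathione synthesis gene GCLM rose by 0.83 ± 0.07, the cystine carrier gene SLC7A11 by 0.79 ± 0.13 and the ferritin gene FTH1 by 0.65 ± 0.14. Amino acid response genes controlled by ATF4 were higher in 16 and lower in 5 of 34 (median 0.21), with rises of DDIT3 (0.67 ± 0.16) and CHAC1 (0.69 ± 0.10). The glutamine carrier gene SLC1A5 was at 48.6, 45 and 40.7 RPKM in pLKO and 17.3, 17.4 and 15.2 RPKM in shPALI1 and fell by 1.38 ± 0.09 (adjusted p = 4.5e-08). The unfolded protein response of the endoplasmic reticulum was lower in 10 and higher in 2 of 28 (median -0.18). It included falls of EDEM1 (0.84 ± 0.11) and HERPUD1 (0.71 ± 0.08). Of 22 heat shock genes 6 rose, led by DNAJB4 (1.49 ± 0.11) and HSPB8 (1.37 ± 0.12), and 1 fell (median -0.0).

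**Figure D4:**
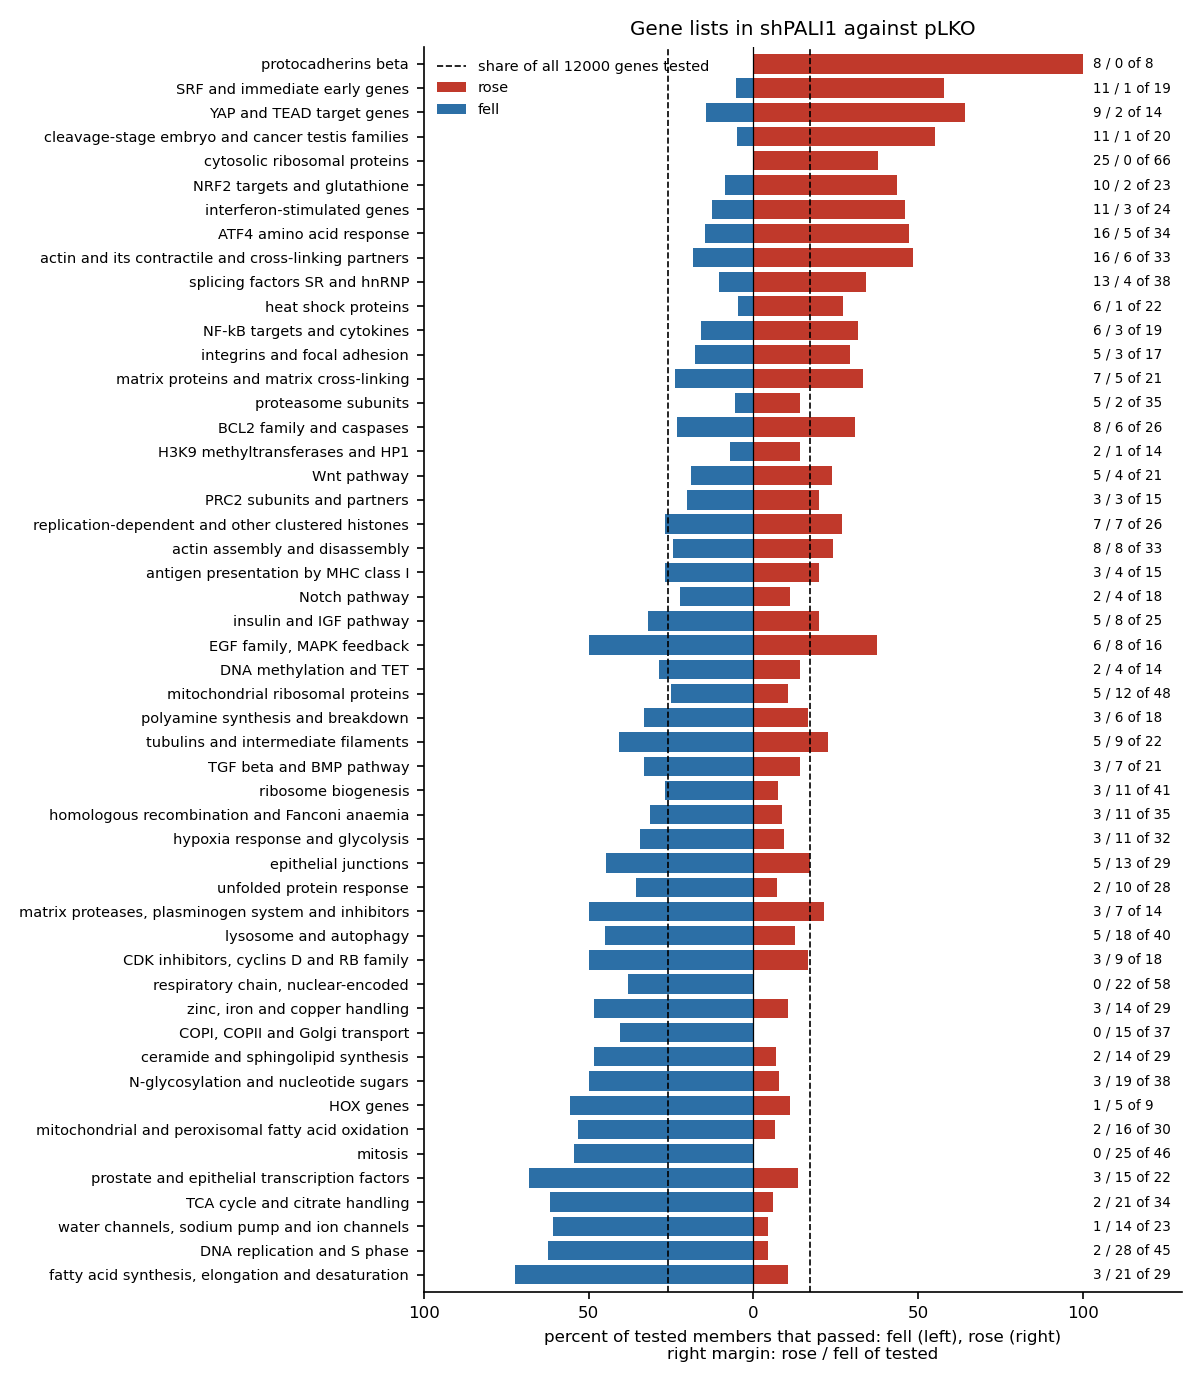
Percent of tested members that rose (red, to the right) or fell (blue, to the left) in shPALI1 against pLKO, by gene list, with counts of rose, fell and tested in the right margin and dashed lines at the shares of all 12000 genes, 17.2% and 26.0%. Protocadherins beta stand at the top with 8 of 8 tested members higher, and fatty acid synthesis at the bottom with 21 of 29 lower. Lists of rarely expressed genes, such as the protocadherins and the embryo families, show only members that passed the filter, some of them through their shPALI1 values alone.

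Fatty acid synthesis and desaturation genes had the highest share of falls among the lists in the plot of gene lists. LNCaP cells, like prostate epithelium, make much of their fat themselves, and 21 of 29 tested genes fell while 3 rose (median -0.58), without the 1 androgen list member 20 of 28. SCD, which introduces the double bond of oleate (chromosome 10, 100347124 to 100364834, plus strand), was at 163, 166 and 152 RPKM in pLKO and 25.2, 27 and 33.6 RPKM in shPALI1, 5.61-fold below the control mean (fell by 2.46 ± 0.12, adjusted p = 1.5e-09). The list's regulator SREBF1 fell by 1.05 ± 0.10, the desaturase FADS2 by 0.96 ± 0.10, acetyl-CoA carboxylase ACACA by 0.85 ± 0.14, the elongase ELOVL5 by 0.79 ± 0.08 and fatty acid synthase FASN by 0.63 ± 0.12. ACSL3, an acyl-CoA synthetase of lipid droplets that is also on the androgen list, was at 75.2, 84.2 and 84.8 RPKM in pLKO and 25, 23.4 and 26.7 RPKM in shPALI1 (fell by 1.66 ± 0.09).

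Among lipid breakdown and ceramide genes, falls outnumbered rises, as they did over all tested genes, of which 26.0% fell and 17.2% rose. Of 30 genes of fatty acid oxidation 16 fell and 2 rose (median -0.34). CPT1A, the gate for fatty acid entry into mitochondria, was at 60.7, 62.1 and 59.6 RPKM in pLKO and 27.2, 26.9 and 28.1 RPKM in shPALI1 (fell by 1.12 ± 0.06, adjusted p = 4.3e-09). DECR1, needed to oxidise unsaturated fatty acids, was at 19.2, 19.9 and 17.6 RPKM in pLKO and 44.7, 34.5 and 33.8 RPKM in shPALI1 and rose by 0.95 ± 0.14 (adjusted p = 6.7e-05), opposite to most of its list. Of 29 ceramide and sphingolipid genes 14 fell and 2 rose, with the ceramide synthase CERS6 at 16.1, 19 and 18 RPKM in pLKO and 5.71, 5.99 and 6.78 RPKM in shPALI1 (fell by 1.39 ± 0.19) and CERS4 lower by 1.07 (log2). SPHK2, a sphingosine kinase gene, rose by 0.99 ± 0.11.

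Mitochondrial and other central metabolism had more falls than rises, in shares to be read against the 26.0% of all tested genes that fell. Of 34 genes of the citrate cycle 21 fell and 2 rose (median -0.26), and of 58 nuclear-encoded respiratory chain genes 22 fell and 0 rose (median -0.27). PDHX, which anchors a subunit of pyruvate dehydrogenase, was at 35.6, 37 and 36.6 RPKM in pLKO and 17.9, 18.2 and 17.1 RPKM in shPALI1 (fell by 1.00 ± 0.05, adjusted p = 4.6e-09). The respiratory count was 13 without pLKO replicate 1 and 13 without shPALI1 replicate 3. Of 32 hypoxia and glycolysis genes 11 fell, among them LDHA (0.71 ± 0.10), HK1 (0.91 ± 0.08) and the glucose carrier gene SLC2A1 (0.71 ± 0.09), and 3 rose, among them ADM (0.99 ± 0.14). Of 18 polyamine genes 6 fell, with ARG2 (1.35 ± 0.08), SAT1 (1.27 ± 0.10) and ODC1 (0.59 ± 0.07) among them, and 3 rose.

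Prostate epithelium is known for secretion and ion transport, and genes of these functions were lower on balance. Of 23 genes of water and ion transport 14 fell and 1 rose (median -0.28), and without a filter 17 fell and 1 rose of 36. AQP3, a channel for water and glycerol (chromosome 9, 33441154 to 33447633, minus strand), was at 22.1, 19.1 and 16.6 RPKM in pLKO and 3.8, 3.19 and 4.24 RPKM in shPALI1 (fell by 2.09 ± 0.13, adjusted p = 1.7e-08). FXYD3, a regulator of the sodium pump, was at 19.1, 17.8 and 15.8 RPKM in pLKO and 4.36, 3.56 and 3.98 RPKM in shPALI1 (fell by 1.90 ± 0.13, adjusted p = 6.9e-08). Both genes lay in separate ranges in the 2 groups, which the rule for choosing the largest falls required. The calcium channel gene TRPV6 and the Golgi calcium pump gene ATP2C1 each fell, by 1.11 ± 0.09 and 1.11 ± 0.09. TRPM8, the cold-sensing channel that is also on the androgen list, rose by 0.92 ± 0.10.

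Zinc is concentrated by prostate cells, and 14 of 29 genes of zinc, iron and copper handling fell while 3 rose. SLC30A4, which moves zinc out of the cytosol, was at 53.7, 61.3 and 56.2 RPKM in pLKO and 12.8, 14.6 and 17.9 RPKM in shPALI1 (fell by 1.86 ± 0.22, adjusted p = 1.4e-05). SLC39A6, which brings zinc in, was at 68.5, 74.2 and 72.4 RPKM in pLKO and 19.6, 19.6 and 21 RPKM in shPALI1 (fell by 1.79 ± 0.08, adjusted p = 1.4e-09), so exporter and importer were both lower. Another importer gene, SLC39A8, rose by 1.01 ± 0.08, and the metallothionein gene MT1X fell by 1.05 ± 0.10.

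Among genes of the secretory route, falls outnumbered rises, as they did over all tested genes, of which 26.0% fell and 17.2% rose. Of 37 genes of COPI, COPII and Golgi transport 15 fell and 0 rose (median -0.15), and LMAN1, a cargo receptor for glycoproteins, was at 48.6, 58.7 and 54.2 RPKM in pLKO and 22.6, 24.3 and 26.9 RPKM in shPALI1 (fell by 1.10 ± 0.11, adjusted p = 1.9e-06). Of 38 glycosylation genes 19 fell and 3 rose, including a rise of the mannosidase MAN1A1 (1.12 ± 0.12). Of 40 lysosome and autophagy genes 18 fell and 5 rose (median -0.18), with 2 rises without pLKO replicate 1, pLKO replicate 2 or shPALI1 replicate 2 and 3 without pLKO replicate 3 or shPALI1 replicate 1. BECN1, which starts autophagosome formation, was at 23.3, 24.3 and 21.1 RPKM in pLKO and 8.26, 7.6 and 9.25 RPKM in shPALI1 (fell by 1.35 ± 0.08, adjusted p = 8e-09), while the initiating kinase ULK1 was at 14.6, 11.4 and 11.4 RPKM in pLKO and 28.2, 28.7 and 27.5 RPKM in shPALI1 (rose by 1.12 ± 0.08, adjusted p = 8.7e-08). WIPI1 and the lysosomal regulator TFEB fell by 1.24 ± 0.10 and 0.92 ± 0.13.

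A minority of the genes with falls of at least 2-fold carry the 7-base word GAGGATA in the 3′ UTR. Folds in this paragraph are on the scale of the test. The word was found in an earlier search of these same data, so its shares describe and support nothing. Of 10529 tested genes with a 3′ UTR (longest annotated, GENCODE v29), 17.7% of those that fell at least 2-fold held it (37 of 209), 11.2% of other falls, 7.7% of genes that did not pass, and 6.3% and 6.5% of the smaller and larger rises. The 902 holders had a median change of -0.15, against -0.06 for the other 9627, and longer 3′ UTRs (median 3470 against 1535 bases). In the same 2 sets the medians were -0.05 and -0.06 for shG9a, -0.08 and -0.03 for shJarid2, and -0.09 and -0.11 for shsuz12, each against the shared pLKO libraries. Sites of 30 bases (GRCh38) are shown for genes named here, with the word in capitals: SCD at chr10:100361672-100361701 (plus strand), PSD4 at chr2:113202276-113202305 (plus), SLC39A6 at chr18:36108700-36108729 (minus), CERS6 at chr2:168770430-168770459 (plus), BECN1 at chr17:42810349-42810378 (minus), PDHX at chr11:34995808-34995837 (plus) and LCOR at chr10:96993908-96993937 (plus).
SCD: tagttgaggccGAGGATAaagaaaagacat
PSD4: agaccactggaGAGGATAgagaggtaaaag
SLC39A6: ttgatatatatGAGGATAttaaaactacac
CERS6: tgattttgaagGAGGATAttcactgaagct
BECN1: tttactgagatGAGGATAtgtttgagatgc
PDHX: ttctaaagcaaGAGGATAaaagaagcatga
LCOR: cccttgtctcaGAGGATAgggtgggggtag
In all, 341 falls held the word and 2591 did not, AQP3 among the latter. Without the genes that hold the word, 1948 genes were higher and 2762 lower among 11098.

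Among lineage regulators of the prostate, most were lower. Of 22 tested prostate and epithelial transcription factors 15 fell and 3 rose (median -0.45), and outside the androgen list 12 of 19 fell. SPDEF, an Ets factor of secretory epithelium that is on both lists, was at 61.7, 51.1 and 48.9 RPKM in pLKO and 17.2, 18.3 and 19.2 RPKM in shPALI1 (fell by 1.51 ± 0.12, adjusted p = 1.6e-07). SOX9 fell by 1.20 ± 0.10, HOXB13 by 1.02 ± 0.09 and the retinoic acid receptor gene RARG by 1.00 ± 0.07. SOX4, a factor of progenitor cells, was at 48.5, 49.5 and 41.9 RPKM in pLKO and 123, 124 and 118 RPKM in shPALI1 and rose by 1.37 ± 0.07 (adjusted p = 4.3e-09). Of 39 HOX genes, the classic targets of Polycomb repression, only 9 passed the filter, 5 of which fell and 1 rose, and without a filter 6 fell and 2 rose of 31. HOXC12 and HOXC13 fell by 0.87 ± 0.19 and 0.75 ± 0.11.

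Signalling pathways gave mixed counts. Of 16 EGF and MAPK feedback genes 6 rose and 8 fell, including PHLDA2, a placental growth regulator (1.48 ± 0.15), and the phosphatase gene DUSP5 rose by 1.13 ± 0.14. In the TGF beta and BMP list 3 of 21 rose and 7 fell. ID3, a BMP target that blocks differentiation factors, was at 12.6, 12.2 and 9.63 RPKM in pLKO and 44.2, 40.6 and 36 RPKM in shPALI1 (rose by 1.73 ± 0.12, adjusted p = 7.1e-08). In the insulin and IGF list 5 of 25 rose, with PIK3R1 (0.90 ± 0.14), and 8 fell, with IGF1R (0.83 ± 0.17) and IGFBP2 (1.12 ± 0.17), and 3 rose without pLKO replicate 1 or shPALI1 replicate 2. Wnt (5 rose and 4 fell of 21), Notch (2 and 4 of 18) and NF-kB (6 and 3 of 19) genes changed in both directions, in shares to be read against the 43.2% of all tested genes that passed, with falls of AXIN2 (0.62 ± 0.11) and JAG1 (0.54 ± 0.12) and a rise of NFKB1 (0.58 ± 0.07).

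Genes of protein synthesis and RNA processing moved in both directions. Of 66 cytosolic ribosomal protein genes 25 rose and 0 fell (median 0.30), including RPS20 (0.65 ± 0.15) and RPL15 (0.64 ± 0.11). The count depended on the scaling, at 39 after median ratio scaling, 37 after quantile normalization with 2 lower, 52 after rescaling to a common sum and 56 after correction for length and GC content. It also depended on single libraries, at 13 without pLKO replicate 3 and 11 without shPALI1 replicate 1. Of 41 ribosome biogenesis genes 11 fell and 3 rose, and NCL, the nucleolar protein nucleolin, was at 436, 440 and 417 RPKM in pLKO and 224, 219 and 221 RPKM in shPALI1 (fell by 0.96 ± 0.06, adjusted p = 4.2e-08). Of 35 proteasome genes 5 rose and 2 fell, with 20 rises after quantile normalization and 3 without pLKO replicate 1, pLKO replicate 3 or shPALI1 replicate 1. Of 38 splicing factors 13 rose, led by MBNL2 (1.69 ± 0.14), and 4 fell, among them SRSF9 (1.24 ± 0.12).

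The change of a gene varied with its base composition. In 5 equal parts of the genes by transcript GC content, from lowest to highest, the median change was 0.01, -0.01, -0.04, -0.11 and -0.15, while in 5 parts by transcript length it lay between -0.08 and -0.05. With each library corrected for length and GC content, 2953 genes were higher and 3083 lower among the 11368 with a transcript.

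Genes of the chromatin machinery showed no common direction, and the shares of all tested genes to read these counts against are 17.2% higher and 26.0% lower. Of 15 PRC2 subunits and partners 3 rose, with RBBP4 (0.44 ± 0.07), and 3 fell, with AEBP2 (0.49 ± 0.08) besides C10orf12 and LCOR. Of 14 genes of H3K9 methylation and HP1, 2 rose and 1 fell. The fall was of CBX5, the HP1 alpha gene, at 24.7, 30.1 and 25.9 RPKM in pLKO and 11.4, 14 and 14.3 RPKM in shPALI1 (fell by 0.97 ± 0.15, adjusted p = 0.00011), and ZNF644, a G9a partner, rose by 0.91 ± 0.13. Of 14 genes of DNA methylation 2 rose and 4 fell, the maintenance methyltransferase DNMT1 by 0.48 ± 0.08, and 2 fell without pLKO replicate 1, pLKO replicate 2 or shPALI1 replicate 2. Of 26 histone genes 7 rose and 7 fell, and histone genes share sequence, so their single values are uncertain.

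Direct contrasts between hairpins, which do not use the control libraries, tested which changes differed from those of the other knockdowns. Against shG9a, 49.2% of genes differed, 3050 higher (25.4%) and 2857 lower (23.8%) in shPALI1. Against shJarid2 63.8% differed, 3803 higher (31.7%) and 3848 lower (32.1%), and against shsuz12 56.9%, 3932 higher (32.8%) and 2894 lower (24.1%). Of genes that passed against pLKO, 758 rises were higher and 1024 falls were lower in shPALI1 than in each of the other 3 knockdowns. These genes were chosen on the same shPALI1 libraries that enter the contrasts, which favours such differences, so the counts are a description.

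ACTA2, for instance, was at means of 3.29, 4.31 and 7.07 RPKM in shG9a, shJarid2 and shsuz12 against 15.4 RPKM in shPALI1 (1.94 ± 0.09, 1.63 ± 0.09 and 1.02 ± 0.09 on the log2 scale, adjusted p at most 3.4e-07). PLK2 rose in shPALI1, while its means were 8.5 RPKM in shG9a and 7.26 RPKM in shJarid2, beside 12 RPKM in pLKO. SCD had a mean of 437 RPKM in shG9a, above its pLKO mean of 160 RPKM, and was thus high in one knockdown and low in the other.

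Some changes did not differ from those of another hairpin beyond the test. CLU was at means of 34.7 and 31.5 RPKM in shG9a and shJarid2, against 38.5 RPKM in shPALI1 (differences 0.14 ± 0.15, adjusted p = 0.44, and 0.28 ± 0.15, adjusted p = 0.11). SLC30A4 did not pass against shG9a (0.35 ± 0.22, adjusted p = 0.21), nor BECN1 (0.19 ± 0.08, adjusted p = 0.057). PCDHB2 did not pass against shsuz12 (0.02 ± 0.10, adjusted p = 0.86). S100P, a calcium-binding protein gene, was lower still in shsuz12, at a mean of 0.996 against 4.7 RPKM (1.48 ± 0.18, adjusted p = 6.6e-06). CBLN2, a synaptic organiser, was higher in shsuz12 than in shPALI1, at a mean of 12 against 7.11 RPKM (-0.68 ± 0.11, adjusted p = 0.00015).

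By function, mitotic genes were higher than under the hairpins against PRC2 subunits: of 46, 42 were higher in shPALI1 than in shJarid2 and 42 than in shsuz12, with 0 lower, and 20 were higher and 4 lower than in shG9a. Of 29 fatty acid synthesis genes 19 were lower than in each of the others, taken one at a time. Of 23 NRF2 targets 18 were higher and 2 lower than in shG9a, 17 higher and 2 lower than in shsuz12, and 5 higher and 13 lower than in shJarid2. The shares of all tested genes to read these counts against were 25.4% higher and 23.8% lower for shG9a. They were 31.7% and 32.1% for shJarid2, and 32.8% and 24.1% for shsuz12.

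**Figure D5:**
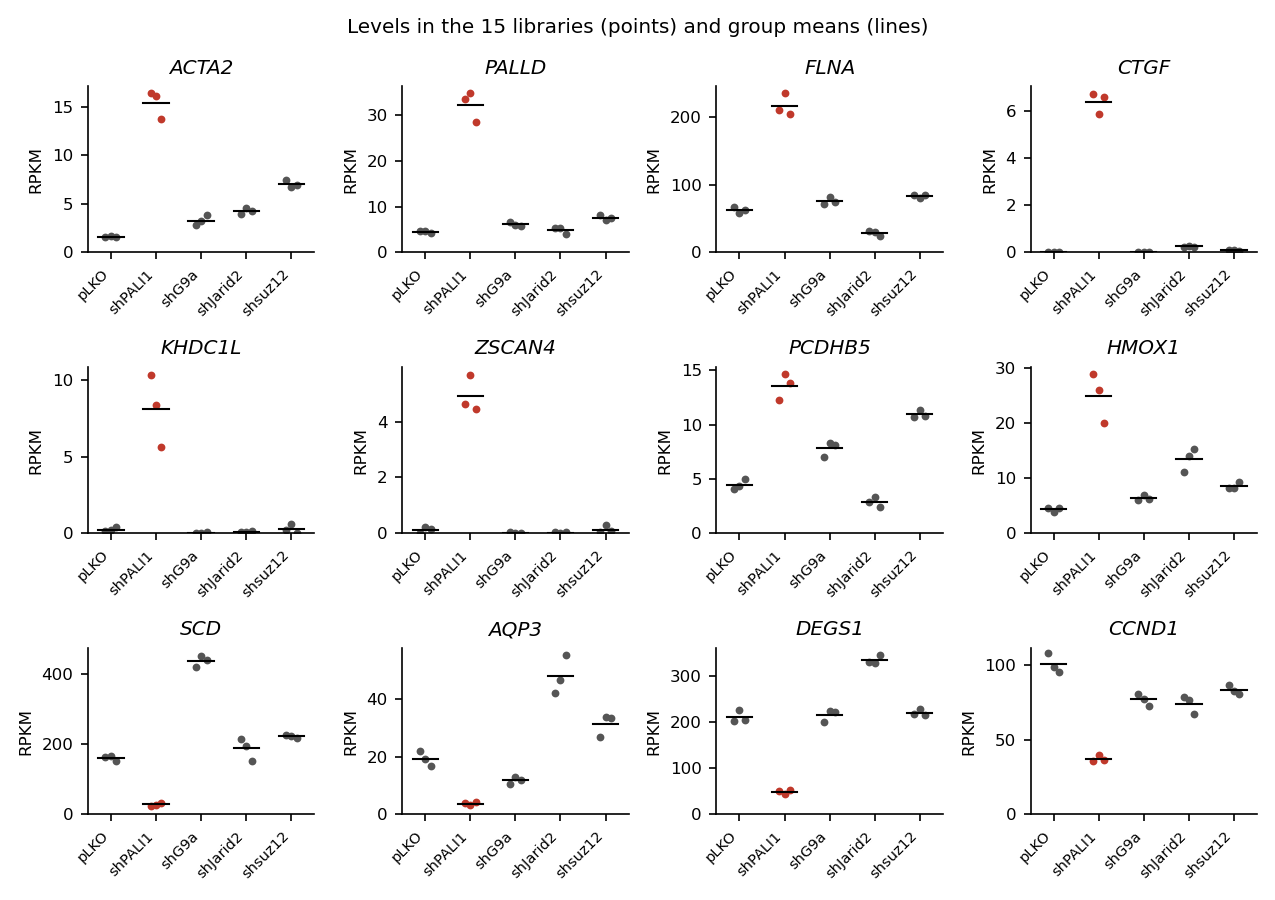
RPKM of 12 genes in the 15 libraries (points; lines, group means), shPALI1 in red. ACTA2, PALLD, FLNA, CTGF, KHDC1L, ZSCAN4 and HMOX1 are highest in shPALI1, and AQP3 and DEGS1 lowest. SCD is lowest in shPALI1 and highest in shG9a.

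Markers of cell types were read beside these results. Luminal markers were expressed, with a summed level of 1916 to 2131 RPKM in pLKO and 815 to 922 RPKM in shPALI1, and 9 of 10 tested members fell, 6 of the 10 being androgen list genes. What part this fall has in the other results was not tested. The 9 basal markers stayed under the filter, with sums of 2.7 to 3.75 and 2.39 to 2.75 RPKM, and TP63 did not exceed 0.0111 RPKM. Of 10 smooth muscle markers, ACTA2 and ACTG2 rose and 2 fell, and the defining genes MYH11, DES and CNN1 were at no more than 0.149 RPKM in any library. Of 10 fibroblast markers, COL3A1 rose and COL1A1 fell (adjusted p = 0.073 after correction for length and GC content), and COL1A2 was at no more than 0.0269 RPKM. Of 12 blood and immune markers, CD68 alone passed the filter and rose (0.46, adjusted p = 0.056 without pLKO replicate 2), and PTPRC, CD3E, CD3D and HBB were at 0 in all 6 libraries. Of the 10 neuroendocrine markers only ENO2 was tested and it did not pass (-0.36, adjusted p = 0.067, and 0.041 without pLKO replicate 3), and none of 9 endothelial markers passed the filter.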

How the data were processed

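RNA sequencing libraries of LNCaP cells were prepared with the NEBNext Ultra kit from total RNA, per the labels' protocols. The authors deposited 1 table of RPKM values for 15 libraries, with reads aligned by STAR to hg38 per the submitters' processing notes. The version of STAR is not given in the sources used here, nor are the counter and annotation. Of 26475 names, 32 carried no values and 28 had been turned into dates. RPKM is not a count, so values were tested as log2(RPKM + 1) with limma 3.58.1 in R 4.3.3, two-sided, with its trend option. A single model held all 15 libraries by group. RPKM moves in steps of 1 read, and with the depth these give, 94.2% to 96.0% of values under 50 reads in short RNA genes were within 0.05 of a whole number in the 6 libraries. These steps depend on the length of each gene model, which is not given, so no count test was run.

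The members and gene lists were chosen with earlier results of these data known, so no list was tested. Named genes were the targeted genes, the 15 largest rises and 15 largest falls among genes that passed, did not overlap and averaged 2 RPKM or more in the higher group (clones, loci, antisense RNAs, pseudogenes, dates and genes of the androgen and cholesterol lists skipped), from each list the 5 members of smallest p, and clustered families as ranges. Outside this rule, 47 genes were chosen after their values were seen, among them FLNA, ZYX, MYL9, MYH9, ACTB, TAGLN2, LIMA1, SRF, MKL1, YAP1, NUAK2, CDH1, PRAME, ISX, HERC5, CDKN2A, GDF15, E2F1, BIK, SLC7A11, FTH1, DDIT3, FASN, FADS2, ACACA, DECR1, TRPM8, TFEB and IGF1R. Some genes and lists that met the rule or were chosen are not reported here.

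The settings varied were the pseudocount (0.1 and 0.5), the filter (none, or a mean of 3 RPKM or more), the scaling (median ratio, a common sum as TPM, quantile normalization), only the 6 libraries, the replicate number as a term, no trend, and each library left out. A correction for length and GC content and a run that leaves out holders of the word GAGGATA were added after seeing the data. Tested on simulated data for shPALI1 against pLKO over 12000 genes, the procedure recovered 69 of 100 genes changed 1.5-fold and 96 of 100 changed 2-fold, with 13 false calls. The changed genes were drawn from those averaging 2 RPKM or more. Noise was normal and independent, and the other knockdowns were set equal to pLKO. Far fewer genes changed there than the 43.2% called in the data, so these rates may not hold for the data. Promoters came from RefSeq (GRCh38.p14), 3′ UTRs and gene locations from GENCODE v29 (GRCh38). Tables were made with Python 3.11.15 and pandas 2.3.3.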

Additional observations from a re-analysis of the deposited data

How the results depend on the processing

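Between shPALI1 and pLKO, leaving out 1 of the 6 libraries gave 1709 to 1871 genes higher and 2563 to 3027 lower. The other alternatives gave 1620 to 2953 higher and 2709 to 3257 lower, each within 1.5 times of 2070 and 3115. Without shJarid2 replicate 3, which enters only through the shared spread, 2525 were higher and 3811 lower. With no filter 20581 genes were tested and 2547 were higher and 3234 lower. With the replicate number as a block, 2028 genes were higher and 3001 lower. The numbers do not pair the samples: same-numbered libraries of the 2 groups deviated together with correlations of 0.143, -0.014 and 0.157. Against the other hairpins, leaving out 1 library gave 2576 to 2748 higher and 2491 to 2602 lower than in shG9a, 3456 to 3966 and 3485 to 3916 than in shJarid2, and 3427 to 3603 and 2561 to 2690 than in shsuz12. Of 344 named genes, 331 kept their direction and side of the threshold under every one of the 18 alternatives that gave them a value, and none reversed. A mean of 3 RPKM or more gave values for 279 of them, the run without holders of the word for 306 and the correction for length and GC content for 339. The other 13 were EHMT2, JARID2, SUZ12, SUV39H2, ZBTB4, TDG, TET3, FN1, ENO2, COL1A1, CD68, CDH1 and EGFR, and the cause was not tested. Depth limits genes under about 1 RPKM, where a gene of 2 kb has 21.1 to 31.9 reads per RPKM, and values near 0.03 RPKM rest on single reads.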

Other observations

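Some genes outside the lists changed as much as those within them, and apart from NPPC they were chosen after their values were seen. CITED2, which competes with hypoxia-inducible factor for its coactivators, was at 35.1, 28.7 and 26.1 RPKM in pLKO and 122, 127 and 119 RPKM in shPALI1 (rose by 2.01 ± 0.09, adjusted p = 1.4e-09). APP, the amyloid precursor protein gene, was at 146, 150 and 157 RPKM in pLKO and 46.3, 45.1 and 47.9 RPKM in shPALI1 (fell by 1.68 ± 0.06, adjusted p = 1.6e-10). EDN1, the vasoconstrictor peptide endothelin 1, rose by 1.74 ± 0.13, and NPPC, which encodes C-type natriuretic peptide, a relaxing counterpart, was at 7.62, 5.02 and 3.55 RPKM in pLKO and 1.22, 0.104 and 0.728 RPKM in shPALI1 (fell by 1.93 ± 0.24). BHLHA15, a regulator of secretory cell architecture, fell by 1.76 ± 0.12, and ST6GALNAC1, which caps mucin-type glycans with sialic acid, by 1.68 ± 0.08. In CITED2 and APP the 2 groups did not overlap.

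In the table as deposited, DYNLRB1, a light chain of dynein, rose by 1.91 ± 0.12 in shPALI1. Its means were 57.2 RPKM in shG9a, 76.2 RPKM in shJarid2 and 46.5 RPKM in shsuz12, all above the pLKO mean of 11.5 RPKM.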
